A study of Sus scrofa with 150 samples.

Results

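HMGCS1, SQLE, FDFT1, FDPS and INSIG1, genes of cholesterol synthesis and of its feedback control, were described across the livers of 150 pigs. They were chosen by name: 8 genes were listed (HMGCS1, SQLE, LSS, FDFT1, FDPS, IDI1, INSIG1 and DHCR7), and a probe set was taken when the array annotation gave it that symbol and no other. These 5 genes had such a probe set, 6 probe sets in all of the 23999 on the array that are not controls, because INSIG1 had a pair of them. LSS, IDI1 and DHCR7 had none under that name and were not analysed here. No gene of the set is an uptake receptor, so the results concern synthesis and its control only.

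The animals formed a single group, commercial crossbred pigs labelled Pix(DLxDE), without treatment and without a control group. Liver was taken at slaughter, at a mean end weight of 110 kg, and the RNA of each pig was read on a single Affymetrix array designed for porcine genes. Each pig had a fat area on the long back muscle, 15.2 cm2 on average (SD 3.25, n = 150), and a drip loss, the share of weight that a hanging piece of that muscle loses as fluid, 5.54% on average (SD 2.12, n = 150). Sex, age, family, feeding state, slaughter day and array batch are not given in the labels, and every comparison is therefore across pigs.

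Cholesterol is built from acetyl-CoA through the mevalonate pathway. HMGCS1 makes HMG-CoA at its start, FDPS makes the farnesyl diphosphate that feeds both sterols and other isoprenoids, FDFT1 joins farnesyl units into squalene, and SQLE oxidises squalene on the way to lanosterol. The transcription factor SREBP-2 drives these genes when sterols are scarce. INSIG1 holds the SREBP escort protein SCAP in the endoplasmic reticulum when sterols are plentiful, and in mammals INSIG1 is itself a target of SREBP. In the liver, CYP7A1, the rate-limiting enzyme of the classical bile acid pathway, uses cholesterol as its substrate.

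All 10 hepatocyte markers measured were bright, with gene means between 12.8 and 13.9 on the log2 signal scale. The array medians ran from 5.79 to 6.09, and the lowest value in the table, 4.09, held 2.75% of all values. On 13 arrays the median correlation with the other arrays was low, and results were also computed without them. The cut lay 3 median absolute deviations, scaled to the size of an SD, below the median over all arrays. Title numbers, whose meaning is not given, were grouped into 10 blocks of 100 numbers with 6 to 24 pigs each as a possible batch. These blocks held between 1.25% (INSIG1) and 8.08% (HMGCS1) of the variance of the 5 genes, against a median of 8.95% over all probe sets.

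All 5 genes were measured above the floor in every liver, and all varied more between pigs than most probe sets did. HMGCS1 ran from 5.70 through a median of 8.26 to 10.97 on the log2 signal scale (SD 1.07, n = 150). Its SD lay at the 99.8th percentile of all probe sets, and the upper and lower quartiles differed 2.64-fold. The pigs formed no clusters by it in the plot of levels by pig.

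SQLE ran from 6.64 through 8.93 to 10.25 (SD 0.67), with a 1.89-fold difference between quartiles. FDFT1 ran from 8.02 through 10.63 to 12.23 (SD 0.60), with a 1.60-fold difference. FDPS ran from 8.30 through 10.24 to 11.32 (SD 0.53), with a 1.59-fold difference. These enzymes lay at the 98th, 96.4th and 93.3rd percentile of the SD over all probe sets, in that order, so FDPS was the least variable of the set. INSIG1, the feedback regulator, was close to HMGCS1 in this rank, at the 99.4th percentile. It ran from 8.54 through 10.68 to 12.64 (SD 0.85), with a 2.40-fold difference between quartiles. Its dimmer probe set ran from 5.67 through 7.12 to 8.92 (SD 0.71). Probe sets differ in how they respond to their transcript, so these ranges describe each probe set and are no ranking of transcript amounts.

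**Figure D1:**
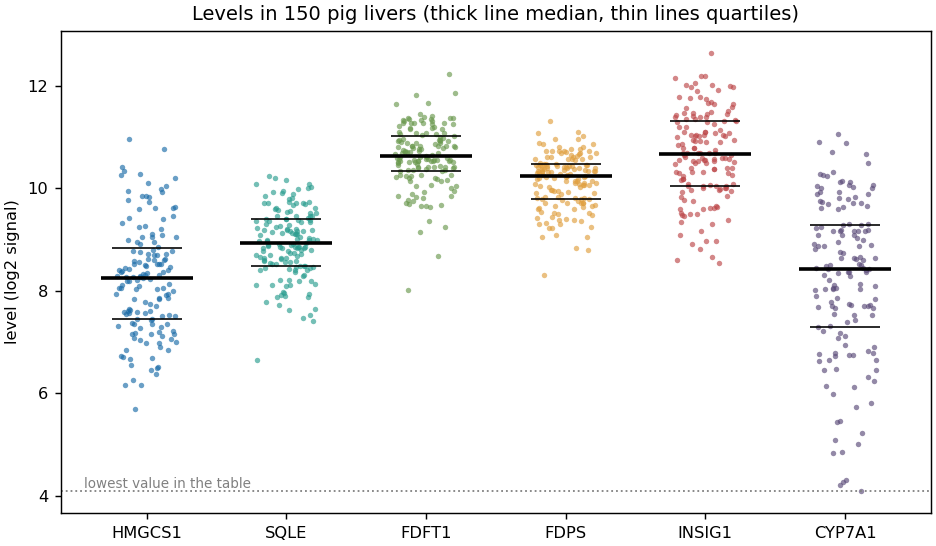
Levels of the 5 genes and of CYP7A1 in each of 150 livers, on the log2 signal scale (vertical axis), 1 point per pig, with the median as a thick line and the quartiles as thin lines. HMGCS1 and INSIG1 spread more widely (SD 1.07 and 0.85) than FDPS (SD 0.53), and CYP7A1 reached the lowest value in the table, 4.09, in 1 pig.

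A single pig was the lowest of all 150 in HMGCS1, SQLE, FDFT1 and FDPS. Its levels were 5.70, 6.64, 8.02 and 8.30, and its CYP7A1 lay at the floor of 4.09. INSIG1 did not follow in this animal and stood at 11.58, above the median of 10.68. Its array was among the 13 that stand apart (median r 0.954), and its fat area of 14.0 cm2 and drip loss of 4.9% were near the average. Correlations were therefore repeated without it.

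HMGCS1 and the squalene enzymes SQLE and FDFT1 rose and fell together from pig to pig, and FDPS followed them loosely. INSIG1 showed no detectable relation to any of the 4 once p-values were adjusted over the 10 pairs. The correlation of HMGCS1 with SQLE was r = 0.868 (95% interval 0.822 to 0.903, rho 0.872, n = 150). SQLE and FDFT1 correlated at r = 0.785 (0.715 to 0.840, rho 0.772), and HMGCS1 and FDFT1 at r = 0.713 (0.624 to 0.784, rho 0.741). Each of these 3 pairs had a permutation p of 1e-05, the smallest that 100000 resamples can give (adjusted p = 3.33e-05 over 10 pairs), and each was positive in 10 of 10 blocks of title numbers. Without the lowest pig they were 0.864, 0.764 and 0.702, and without the 13 arrays that stand apart 0.852, 0.773 and 0.706, in the same order. Leaving out the 2 pigs farthest from the median gave 0.862, 0.758 and 0.687.

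FDPS, which makes the last intermediate shared with the other isoprenoids, correlated at r = 0.372 with FDFT1 (0.225 to 0.502), 0.339 with HMGCS1 (0.189 to 0.473) and 0.290 with SQLE (0.136 to 0.430). The permutation p-values, adjusted over the 10 pairs, were 5e-05, 0.0001 and 0.00055 in that order. Part of this rested on the lowest pig, since the values without it were 0.301, 0.301 and 0.227. Within blocks of title numbers the relation of FDPS to FDFT1 and to HMGCS1 was positive in 9 of 10 and that to SQLE in 8 of 10. HMGCS1 was more strongly correlated with SQLE than with FDPS, a difference of 0.529 between the 2 correlations. Steiger's test, added after the correlations had been seen, gave an adjusted p of 2.27e-17 over 16 differences. HMGCS1 was also more strongly correlated with FDFT1 than with FDPS, by 0.374 (Steiger's test, adjusted p = 3.71e-07).

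INSIG1 correlated with HMGCS1 at r = -0.016 (-0.175 to 0.145), with SQLE at 0.079 (-0.082 to 0.237), with FDFT1 at -0.142 (-0.296 to 0.019) and with FDPS at -0.162 (-0.314 to -0.002). The 4 adjusted permutation p-values ran from 0.0694 for FDPS to 0.849 for HMGCS1, so none of them passed. The upper ends of these intervals leave room only for positive correlations of at most 0.237. Between HMGCS1's correlation with SQLE and its correlation with INSIG1 the difference was 0.883 (Steiger's test, adjusted p = 1.55e-27), and between those with FDPS and INSIG1 it was 0.354 (adjusted p = 0.00609). The INSIG1 signal itself was reproducible between probe sets, whose correlation was r = 0.817 (rho 0.831). The dimmer probe set gave r = -0.069 with HMGCS1, 0.021 with SQLE, -0.158 with FDFT1 and -0.127 with FDPS.

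**Figure D2:**
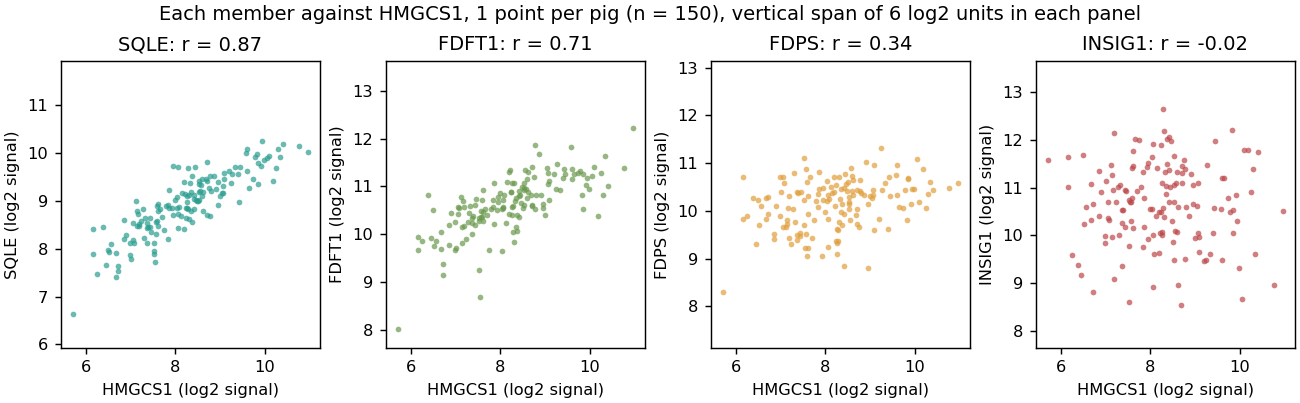
Log2 signal of SQLE, FDFT1, FDPS and INSIG1 (vertical axes, each spanning 6 log2 units) against that of HMGCS1 (horizontal axes), 1 point per pig, n = 150. The points narrow to a line for SQLE (r = 0.868), widen for FDFT1 (0.713) and FDPS (0.339) and form a round cloud for INSIG1 (-0.016).

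The closeness of the first 3 enzymes stood out against the rest of the array. Over the other 23998 probe sets the correlation with HMGCS1 had a median of 0.01, a 95th percentile of 0.334 and a 99th percentile of 0.402. SQLE ranked 2 and FDFT1 ranked 9 among them, FDPS ranked 1095 and INSIG1 ranked 13228. Seen from SQLE, HMGCS1 ranked 1 and FDFT1 ranked 3. FDPS lay within the upper 5% of the probe sets by correlation with HMGCS1, while INSIG1 lay in the middle of them.

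Macrophage markers ran opposite to the enzymes. The mean level of 6 measured markers out of 10 listed (CD163, CD14, MARCO, CD5L, C1QA and C1QC) ran from 9.25 to 10.54 across livers, and 0 of the 6 were at the floor on every array. It correlated at r = -0.498 with HMGCS1, -0.490 with SQLE, -0.313 with FDFT1, -0.303 with FDPS and -0.035 with INSIG1. With that mean removed, the correlation of HMGCS1 was 0.825 with SQLE, 0.676 with FDFT1 and 0.227 with FDPS, and the median over the 10 pairs of the 5 genes was 0.199, against 0.314 without the removal. In pieces of whole liver, fewer cells of a type and less RNA per cell cannot be told apart. The median of each array also correlated with HMGCS1 (r = 0.323) and SQLE (0.232), and with it removed HMGCS1 correlated at 0.861 with SQLE and at 0.750 with FDFT1.

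Most of the remaining measured genes of cholesterol synthesis varied with the same enzymes. Of 16 listed genes 7 had a probe set under a matching symbol. Of these 7, 6 lay above the 99th percentile of all probe sets in their correlation with the mean of the 5 standardised genes. The 7 had a median correlation with that mean of 0.459, against 0.01 over all probe sets.

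The brightest probe sets of these genes differed in which enzyme they followed. MSMO1, a sterol methyl oxidase, correlated at r = 0.77 with HMGCS1 and 0.78 with SQLE but 0.20 with FDPS. The contrast was weaker in dimmer probe sets of MSMO1. In the same order, a dimmer probe set gave 0.69, 0.58 and 0.32, and another gave 0.51, 0.53 and 0.26. CYP51, the lanosterol demethylase, gave 0.75 with HMGCS1, 0.75 with SQLE and 0.20 with FDPS. SC5D, a late sterol desaturase, gave 0.59 with HMGCS1, 0.63 with SQLE and -0.06 with FDPS. These 3 genes of the steps after lanosterol thus went with HMGCS1 and SQLE.

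NSDHL, a sterol dehydrogenase that acts in the same demethylation steps as MSMO1, correlated at 0.77 with FDPS and 0.34 with HMGCS1, and 0.77 was the highest value of FDPS with any probe set. A dimmer probe set of NSDHL did not show this contrast, at 0.57 with FDPS, 0.50 with HMGCS1 and 0.55 with FDFT1. TM7SF2, a sterol reductase, gave 0.49 with FDPS and 0.19 with HMGCS1. HSD17B7, a sterol ketoreductase, gave 0.33 with FDPS and 0.22 with HMGCS1. ACAT2, the cytosolic acetoacetyl-CoA thiolase that precedes HMGCS1, went with both groups, at 0.74 with FDPS and 0.65 with HMGCS1. These values are a description over the same 150 arrays, and the differences among these 7 genes were not tested.

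**Figure D3:**
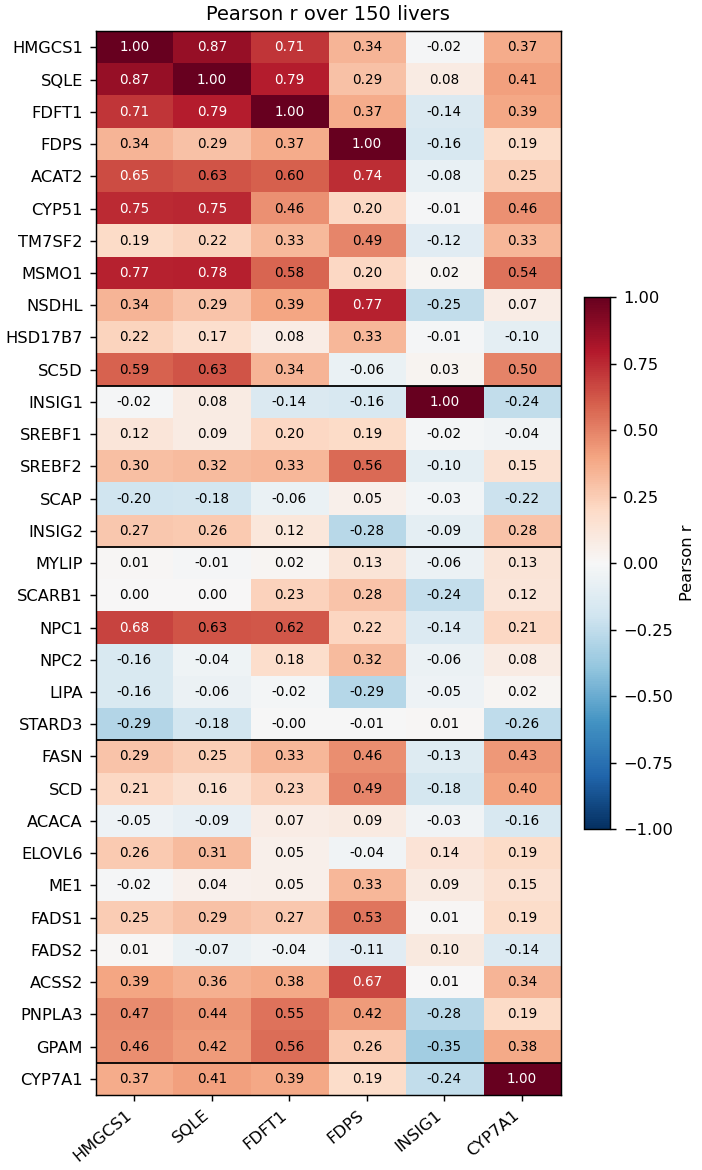
Pearson r over 150 livers of HMGCS1, SQLE, FDFT1, FDPS, INSIG1 and CYP7A1 (columns) with the measured genes of cholesterol synthesis, sterol sensing, cholesterol uptake and transport, and fatty acid synthesis, and with CYP7A1 (rows, parted by black lines), red for positive and blue for negative. HMGCS1, SQLE, MSMO1 and CYP51 form a block of high values (0.75 to 0.87), and NSDHL and ACAT2 are darkest under FDPS (0.77 and 0.74). The INSIG1 column is paler apart from INSIG1 itself, and its most negative values are with GPAM (-0.35) and PNPLA3 (-0.28).

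Among genes that sense sterols or move cholesterol, few followed the enzymes. SREBF2, which encodes SREBP-2, correlated at 0.56 with FDPS and between 0.30 and 0.33 with HMGCS1, SQLE and FDFT1. NPC1, which exports cholesterol from lysosomes, gave 0.68 with HMGCS1, 0.63 with SQLE and 0.62 with FDFT1, but 0.22 with FDPS. INSIG2, the paralogue of INSIG1, gave 0.27 with HMGCS1 and -0.28 with FDPS, and -0.09 with INSIG1. SCARB1, the receptor for high-density lipoprotein, gave 0.00 with HMGCS1 and 0.28 with FDPS.

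Of 10 measured genes of fatty acid synthesis, 6 had a higher correlation with FDPS than with HMGCS1 and 4 a lower one. ACSS2, which makes acetyl-CoA from acetate, gave 0.67 with FDPS and 0.39 with HMGCS1. FADS1, a fatty acid desaturase, gave 0.53 and 0.25, SCD, the stearoyl-CoA desaturase, 0.49 and 0.21, and FASN, the fatty acid synthase, 0.46 and 0.29, each with FDPS before HMGCS1. GPAM, which starts glycerolipid synthesis, and PNPLA3, a lipid droplet protein, were closest to FDFT1, at 0.56 and 0.55. These differences were not tested either.

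Among genes whose symbols matched no list, HMGCS1 and SQLE shared C7H14orf1 and CMAS among their 3 closest named genes. SQLE and FDFT1 shared MMAB, and the closest of FDPS were others. C7H14orf1 is a locus name, so it may be a listed gene under another name. HMGCS1 was followed most closely by C7H14orf1 (r = 0.49), OSBPL1A (0.48), an oxysterol-binding-protein relative, and CMAS (0.48), and it ran most opposite to GRPEL1 (-0.55). For SQLE the closest were C7H14orf1 (0.52), MMAB (0.50) and CMAS (0.48). FDFT1 was closest to MMAB (0.70), an enzyme of cobalamin metabolism, TCEA3 (0.62) and TYSND1 (0.56), and ran most opposite to CPT1A (-0.61), which admits fatty acids to mitochondria. FDPS was closest to DHDH (0.64), ISYNA1 (0.59), which makes inositol phosphate, and CSN1S2 (0.58), and most opposite to TSPAN13 (-0.56), CTH (-0.55) and MTTP (-0.53), the lipid transfer protein of lipoprotein assembly. CSN1S2 averaged 4.99 on the log2 scale, close to the floor.

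INSIG1 had other companions. Its closest named genes were PCK1 (r = 0.57), the gluconeogenic enzyme, CLIP4 (0.56) and KLF10 (0.54), a transcription factor. It ran most opposite to CS (-0.60), the citrate synthase, ATP23 (-0.48) and CITED2 (-0.47). Among the 6 measured clock genes it correlated at 0.41 with NFIL3, 0.32 with PER1, 0.14 with ARNTL, 0.08 with BHLHE40, -0.19 with DBP and -0.22 with CRY2. Of the 20 probe sets closest to the mean of the 5 genes, other than their own, 10 had no symbol in the annotation and 9 belonged to 6 listed lipid genes, and the other was MMAB. The closest of all, at r = 0.899, was among those without a symbol.

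The enzymes were then set against CYP7A1, which consumes the product of the pathway. CYP7A1 ran from 4.09 through a median of 8.42 to 11.06 on the log2 scale (SD 1.55, n = 150). HMGCS1, SQLE and FDFT1 rose with CYP7A1, INSIG1 fell with it, and FDPS did not pass. In the limma fit, 4 of the 5 genes passed an adjusted p of 0.05, against a background of 24.3% of the 23998 probe sets tested. By direction, 3 of 5 were higher, against 15.6% of all probe sets, and 1 of 5 was lower, against 8.72%. With so many probe sets called, a call alone says little about a gene, and the split of all calls moved from 3743 higher and 2093 lower to 2660 higher and 2918 lower under quantile normalization, and to 1340 higher and 1349 lower with the array median as a covariate, while the 4 calls and their directions stood.

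HMGCS1 rose by 0.40 log2 units per SD of CYP7A1 (SE 0.080, limma adjusted p = 7.41e-05), a 1.32-fold step. SQLE rose by 0.27 (SE 0.049, adjusted p = 9.09e-06) and FDFT1 by 0.23 (SE 0.045, adjusted p = 2.70e-05). HMGCS1 ranked 702 and FDFT1 ranked 552 by p among all probe sets, so many other probe sets were tied more firmly to CYP7A1. FDPS had a slope of 0.10 (SE 0.042, adjusted p = 0.0767). It was called in 5 of the other fits and had a slope of 0.05 (adjusted p = 0.502) without the 13 arrays that stand apart. INSIG1 fell by 0.21 (SE 0.067, adjusted p = 0.0140), and its dimmer probe set by 0.15 (adjusted p = 0.0380).

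In terms of correlation, CYP7A1 gave r = 0.370 with HMGCS1 (0.223 to 0.50), 0.408 with SQLE (0.265 to 0.533) and 0.389 with FDFT1 (0.243 to 0.517). Each had a permutation p of 1e-05, the smallest that the resamples allow (adjusted p = 5e-05 over 15 relations), and rho was 0.388, 0.422 and 0.355. The relation was positive in 10, 9 and 9 of 10 blocks of title numbers. Without the lowest pig, r was 0.342, 0.370 and 0.341, and without the 2 pigs of extreme CYP7A1 0.343, 0.378 and 0.346. With FDPS, CYP7A1 gave r = 0.185 (0.026 to 0.335, adjusted permutation p = 0.0702, rho 0.102), positive in 6 of 10 blocks. With INSIG1 it gave -0.244 (-0.389 to -0.087, adjusted permutation p = 0.00919, rho -0.258), negative in 9 of 10 blocks.

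INSIG1, with its opposite sign, was compared with the other genes in tests added after the correlations had been seen. Its correlation with CYP7A1 lay below that of HMGCS1 by 0.614 (Steiger's test, adjusted p = 3.12e-07), of SQLE by 0.652 (1.32e-08), of FDFT1 by 0.633 (4.46e-07) and of FDPS by 0.429 (0.00104). FDPS in turn lay below SQLE by 0.223 (adjusted p = 0.0226), below FDFT1 by 0.203 (0.0261) and below HMGCS1 by 0.185 (0.0486). Among HMGCS1, SQLE and FDFT1 the largest difference was 0.038 between SQLE and HMGCS1, and the adjusted p-values ran from 0.376 to 0.744, so no difference was detectable there.

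**Figure D4:**
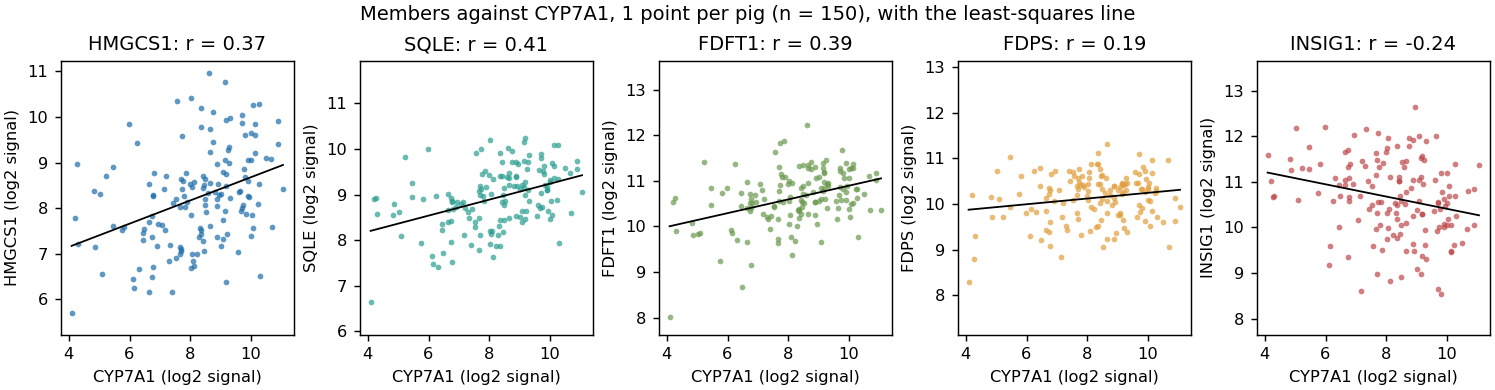
Log2 signal of each of the 5 genes (vertical axes) against that of CYP7A1 (horizontal axes), 1 point per pig, n = 150, with the least-squares line. The lines climb for HMGCS1, SQLE and FDFT1 (r = 0.370, 0.408 and 0.389), are nearly flat for FDPS (0.185) and fall for INSIG1 (-0.244), and the points scatter widely around each.

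Other genes of sterol synthesis moved with CYP7A1 too: 5 of the 7 measured were higher and 0 were lower, beside 15.6% higher and 8.72% lower over all probe sets. MSMO1 rose by 0.28 log2 units per SD (limma adjusted p = 4.17e-10), SC5D by 0.27 (1.60e-08), CYP51 by 0.25 (3.97e-07), ACAT2 by 0.15 (0.0129) and TM7SF2 by 0.13 (0.000496). NSDHL, at 0.03, and HSD17B7, at -0.05, did not pass. In the sterol-sensing list 1 of 4 was higher, INSIG2 at 0.16 (0.00389), and 1 was lower, SCAP at -0.06 (0.0376), so INSIG2 and INSIG1 had opposite signs. Among uptake and transport genes 1 of 6 was higher, NPC1 at 0.07 (0.0424), and 1 was lower, STARD3 at -0.05 (0.0121). Counts of 1 among 4 or 6 genes are near the shares over all probe sets. Of the fatty acid synthesis genes 4 of 10 were higher and 0 lower, among them SCD at 0.40 (1.03e-05) and FASN at 0.36 (1.63e-06). Of the other bile acid genes tested 4 of 5 were higher and 0 lower, led by ABCB11, the bile salt export pump, at 0.32 (1.89e-07). The sterol efflux and esterification list had 0 of 6 higher and 2 of 6 lower. The lower ones were ABCG8, a subunit of the sterol exporter into bile, at -0.12 (0.00132) and LCAT, which esterifies cholesterol in plasma, at -0.08 (0.00804). The list had no common direction, with 3 of 6 slopes positive and a median slope of 0.0001, and ABCA1 stood at 0.13 (0.0627).

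The calls on CYP7A1 were lost when variation shared across the array entered the model. The first 5 principal components over all probe sets held 46.2% of the variance of CYP7A1 and 33.4%, 29.4% and 46% of that of HMGCS1, SQLE and FDFT1. With these components as covariates 0 of the 5 genes passed. The share called over all probe sets also fell, from 24.3% to 2.98%, so a count of 0 among 5 is near that share. HMGCS1 had a slope of 0.05 (limma adjusted p = 0.867), SQLE 0.06 (0.706), FDFT1 0.02 (0.892), FDPS 0.10 (0.322) and INSIG1 -0.20 (0.179). INSIG1 kept its slope and lost its call, and it also lost it with clock genes as covariates (-0.15, adjusted p = 0.102). After these components were removed, HMGCS1 and SQLE still correlated at 0.833, SQLE and FDFT1 at 0.816 and HMGCS1 and FDFT1 at 0.721, while FDPS correlated at 0.268 with FDFT1 and 0.456 with HMGCS1. The macrophage marker mean correlated at r = -0.211 with CYP7A1. With that mean as a covariate 4 of the 5 genes remained called, beside 17.5% of all 23998 probe sets.

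None of the 5 genes was related to fat area at the threshold. In the limma fit 0 of 5 passed, against a background of 0.125% of the 23999 probe sets (0.0792% higher and 0.0458% lower). At an unadjusted p under 0.05, 0 of the 5 passed as well, and 1699 probe sets (7.08%) did. HMGCS1 had a slope of 0.02 log2 units per SD of fat area (95% interval -0.15 to 0.19), SQLE 0.01 (-0.09 to 0.12), FDFT1 0.06 (-0.04 to 0.15) and FDPS -0.03 (-0.11 to 0.06). These intervals leave room for changes of at most 0.19 log2 units per SD. Of the other 7 measured genes of cholesterol synthesis, 0 passed on fat area and 0 on drip loss.

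The 30 pigs with the largest fat area and the 30 with the smallest overlapped almost entirely in each enzyme. HMGCS1 ran from 6.37 through a median of 8.27 to 10.77 in the fattest pigs and from 6.56 through 8.29 to 10.20 in the leanest, a fold of the means of 0.972. SQLE ran from 7.88 through 8.95 to 10.16 in the fattest and from 7.53 through 8.90 to 10.08 in the leanest, a fold of 1.02. FDFT1 had medians of 10.70 in the fattest and 10.60 in the leanest (fold 1.12), and FDPS 10.25 and 10.36 (fold 0.907).

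INSIG1 had the lowest slope of the 5, at -0.13 (95% interval -0.26 to 0.01, p = 0.0654, limma adjusted p = 0.738). Its dimmer probe set had a smaller one, -0.07 (limma p = 0.207, adjusted p = 0.892). The brighter probe set ran from 8.91 through 10.58 to 11.97 in the fattest pigs. In the leanest it ran from 9.31 through 10.88 to 12.19, a fold of 0.799, with overlapping ranges. Over all pigs r was -0.148 (-0.302 to 0.012, adjusted permutation p = 0.170) and rho was -0.190 (permutation p = 0.0188, adjusted p = 0.0564 over 15 relations). The sign was negative in 9 of 10 blocks of title numbers. With clock genes as covariates the slope was -0.06 (adjusted p = 0.944). CYP7A1 itself had a slope of 0.43 on fat area (adjusted p = 0.148).

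EIF1AY, a Y-linked gene, fell into separate low and high levels across the pigs and differed between the fat groups, with means of 6.06 in the fattest pigs and 4.66 in the leanest. The 5 genes were therefore also read within the 77 pigs with higher and the 73 with lower EIF1AY. The correlation of INSIG1 with fat area was -0.228 in the pigs with higher EIF1AY and -0.018 in those with lower, and the difference was not tested. HMGCS1 gave 0.011 and 0.135, SQLE 0.030 and 0.123, FDFT1 0.084 and 0.189, and FDPS 0.095 and -0.039, in the same order. FDPS averaged 10.03 (SD 0.56, n = 77) in the pigs with higher EIF1AY and 10.25 (SD 0.47, n = 73) in those with lower.

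No probe set on the array passed an adjusted p of 0.05 on drip loss. In the limma fit 0 of 5 genes passed, against a background of 0% of the 23999 probe sets. The smallest adjusted p of all was 0.215. An unadjusted p under 0.05 was found for 2638 probe sets (11%), none of them from these 5 genes. SQLE had the highest slope, 0.09 log2 units per SD of drip loss (95% interval -0.01 to 0.20, p = 0.0828, adjusted p = 0.506). HMGCS1 had 0.08 (-0.09 to 0.25), INSIG1 0.06 (-0.07 to 0.20), FDFT1 0.02 (-0.08 to 0.11) and FDPS 0.00 (-0.08 to 0.09).

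Pigs of high and low drip loss overlapped in all 5 genes. SQLE ran from 7.94 through 9.12 to 10.16 in the 30 pigs with the highest drip loss and from 7.78 through 8.83 to 9.91 in the 30 with the lowest, a fold of 1.19. INSIG1 ran from 8.97 through 10.70 to 12.64 in the highest and from 8.54 through 10.57 to 11.90 in the lowest, a fold of 1.15. HMGCS1 had medians of 8.04 in the highest and 8.08 in the lowest (fold of the means 1.13), FDFT1 10.64 and 10.64 (1.04), and FDPS 10.25 and 10.24 (0.988). The correlation of drip loss with SQLE was r = 0.140 (-0.021 to 0.294, adjusted permutation p = 0.187), positive in 7 of 10 blocks.

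**Figure D5:**
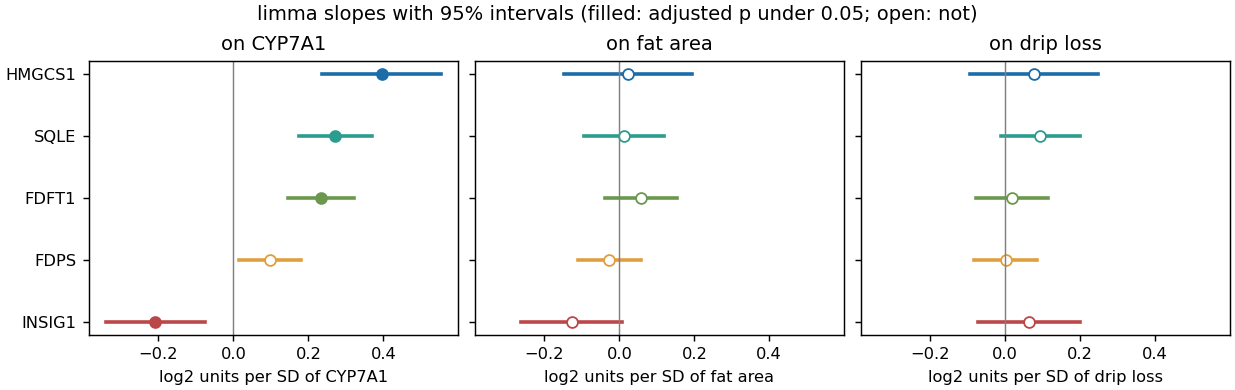
Slopes of the 5 genes in log2 units per SD of CYP7A1, fat area and drip loss (horizontal axes), with 95% intervals; filled points passed an adjusted p of 0.05 in limma. On CYP7A1, HMGCS1, SQLE and FDFT1 lie to the right of 0 and INSIG1 to the left, while every interval on fat area and on drip loss includes 0.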

How the data were processed

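The authors deposited a table with a log2 value for each probe set and pig, a scale that was read from the values. The submitters' processing notes name GCOS 1.1.1. How the authors summarised and normalised the signals is not given in the sources used here. Of 24123 probe sets, 124 controls were left out. Symbols came from the platform annotation, brought up to date with RefSeq's pig genes (Sscrofa11.1) by Entrez ID: 10069 probe sets had 1 symbol, 198 several and 13732 none, 9961 were matched and 0 symbols changed. Each gene was read by its brightest probe set.

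Slopes per SD of the regressor were fitted over all probe sets with limma 3.58.1 (lmFit, eBayes with trend) in R 4.3.3, two-sided, with Benjamini-Hochberg adjustment and a threshold of 0.05. Correlations had two-sided permutation tests of 100000 resamples and Fisher intervals of 95%. Folds in the extreme groups compare means. The fit was also run on simulated data in which the noise of each probe set was independent. Variation shared across the array was absent there, so that run cannot judge the fits where it is present.

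The genes and lists were chosen with earlier results of these data known. Tests of the 10 pairs of genes and Steiger's tests of 16 differences between correlations were added after the values were seen, as were the macrophage and array-median corrections of the correlations. Named genes were the measured genes of the list, CYP7A1, up to 4 genes of every other list per fit or by correlation, and the genes outside the lists closest to or most opposite to each gene; genes named beyond these, including further list genes, the most opposite genes of single members and further clock genes, were chosen after their values were seen. Alternatives were other normalization, filters, eBayes settings, covariates, normal scores and thresholds, and leaving out arrays or pigs. The number of arrays limits the precision, and each pig counts as 1 sample.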

Additional observations from a re-analysis of the deposited data

How the results depend on the processing

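The correlations among HMGCS1, SQLE and FDFT1 stayed between 0.676 and 0.874 under every alternative tried, and those of FDPS with these 3 between 0.170 and 0.456. The median over the 10 pairs was 0.314, and 0.0501 when both INSIG1 probe sets entered by construction, since the pairs added all hold INSIG1. It was 0.199 with the macrophage marker mean removed. With 5 principal components removed, INSIG1 correlated at 0.232 with SQLE, 0.161 with HMGCS1, 0.0928 with FDFT1 and -0.161 with FDPS. These 4 values were not tested. The 4 genes called on CYP7A1 became 0 with 5 principal components as covariates. The 24.3% of probe sets called on CYP7A1 (5836) became 11.2% (2689) with the array median and 2.98% (714) with 5 principal components as covariates. FDPS passed on CYP7A1 with EIF1AY (adjusted p = 0.0427), title blocks (0.0464), the array median (0.0126), the 3 prime minus 5 prime differences (0.0482) or both traits (0.0438) in the model, and at a threshold of 0.1. The 0.125% called on fat area (30 probe sets) became 0.356% among probe sets of an SD above 0.25 (46), 0.192% without the arrays that stand apart (46), 0.00417% with EIF1AY (1), 0.246% with the array median (59), 0.200% with the 3 prime minus 5 prime differences (48), 0.0208% with clock genes (5) and 0.425% with 5 principal components as covariates, 0.0750% on normal scores (18) and 0.275% at a threshold of 0.1 (66). The cause of these shifts was not tested, except that a looser threshold or fewer probe sets tested changes a count by construction. No gene of the 5 passed on fat area or drip loss under any alternative tried, and no call reversed its sign. No paired analysis was possible because the pigs form 1 group. The missing labels for sex, family, feeding state and batch limit all relations across pigs.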
